A study of Mus musculus with 4 samples.

Results

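RNA polymerase II (Pol II) transcribes protein-coding genes, and Mediator is the large complex through which transcription factors reach it. The genes described here are those whose symbol starts with Polr2 or is Med followed directly by a digit, which gave 43 of the 23420 gene symbols in the series. They comprise the 12 core subunit genes Polr2a to Polr2l, Polr2m, which encodes the Pol II-associated protein Gdown1, and 30 Mediator genes. Of these 43 genes, 2 lie on the X chromosome (Med12 and Med14), 0 on the Y chromosome and the others on 18 autosomes, 8 of them on chromosome 11.

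The study asked whether the silencing of the sex chromosomes in meiosis, meiotic sex chromosome inactivation (MSCI), needs ongoing signaling by the kinase ATR. Pachytene spermatocytes were sorted by FACS from testes of wild-type B6 mice aged 23 weeks. They were then kept for 24 h in medium containing either DMSO (Ctrl) or 10 μM AZ20, an ATR inhibitor. RNA of 15000 cells was sequenced for each library, with 2 libraries in each condition. Per the methods, the cells of each mouse were split between treatment and control. Libraries with the same replicate number were taken to come from 1 mouse, which the labels do not state. The temperature of the culture is 34 °C in the labels but 32 °C in the methods.

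The libraries held 13856480 to 20089924 reads on genes, as recovered from the steps between the deposited TPM, a level scaled to gene length and library total. The sum of 9 pachytene markers such as Sycp3 and Piwil1 was 5787 to 6056 TPM in Ctrl and 5902 to 6912 TPM in AZ20. All 6 Sertoli cell markers and 4 of 5 Leydig cell markers were under 1 TPM in every library. So were 3 of the 4 macrophage markers in the table, 2 of 3 peritubular myoid markers and 5 of 6 spermatogonial markers. The exceptions were Star (up to 2.31 TPM), Cd68 (up to 1.28 TPM), Acta2 (up to 1.33 TPM) and the spermatogonial marker Uchl1. Uchl1 had 7.60 and 20.1 TPM in Ctrl and 11.2 and 13.8 TPM in AZ20. In replicate 1 the sum of 6 round spermatid markers was 354 TPM in Ctrl and 753 TPM in AZ20, and in replicate 2 it was 145 and 244 TPM. The sum was thus higher with AZ20 in both replicate pairs, and its part in the results below was not tested. In bulk RNA, fewer cells of a type and less RNA per cell cannot be told apart.

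Polr2a and Polr2b encode the largest subunits, which form the active site, and the POLR2A protein carries the repeated C-terminal domain that kinases phosphorylate during transcription. Polr2e, Polr2f, Polr2h, Polr2k and Polr2l encode subunits that Pol II shares with RNA polymerases I and III. Mediator is commonly divided into head, middle and tail modules held together by MED14, and a dissociable kinase module in which MED12 activates CDK8 or CDK19 with cyclin C, and MED13 links the kinase to the rest. Med12 and Med13 each have an autosomal paralog, Med12l and Med13l.

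The bases upstream of the RefSeq start are shown for the pair of X-linked Mediator genes, for the autosomal paralog Med12l and for Polr2a, because these genes stood lowest in their complexes in Ctrl. The sequences are from RefSeq on GRCm38.p6, each covering 250 bases before the RefSeq start, 5′ to 3′ on the strand of the gene. These starts lie inside the gene spans of the GENCODE annotation, which begin at 101274030 (Med12), 12762073 (Med14), 59005825 (Med12l) and 69758637 (Polr2a). The Med12l stretch therefore lies within its GENCODE span, and the other stretches do so in part. Capitals mark the letters of 4 motifs searched on both strands. These were the ETS factor core CGGAAG, the TATA box letters TATAAA, the NF-Y box letters CCAAT and, as part of a CREB site, the letters TGACGTC. No match of one motif overlaps another in these 4 sequences.
Med12, chrX:101273841-101274090, plus strand: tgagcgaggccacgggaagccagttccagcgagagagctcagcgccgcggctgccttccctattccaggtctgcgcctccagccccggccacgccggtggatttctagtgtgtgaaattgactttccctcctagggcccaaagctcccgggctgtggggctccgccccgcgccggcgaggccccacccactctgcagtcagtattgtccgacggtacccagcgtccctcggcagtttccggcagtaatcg
Med14, chrX:12761974-12762223, minus strand: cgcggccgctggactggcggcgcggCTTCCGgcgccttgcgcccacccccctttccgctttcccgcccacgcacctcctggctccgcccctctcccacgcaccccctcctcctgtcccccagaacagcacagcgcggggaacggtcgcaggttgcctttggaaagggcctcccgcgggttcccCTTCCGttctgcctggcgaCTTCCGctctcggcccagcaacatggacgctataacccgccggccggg
Med12l, chr3:59006728-59006977, plus strand: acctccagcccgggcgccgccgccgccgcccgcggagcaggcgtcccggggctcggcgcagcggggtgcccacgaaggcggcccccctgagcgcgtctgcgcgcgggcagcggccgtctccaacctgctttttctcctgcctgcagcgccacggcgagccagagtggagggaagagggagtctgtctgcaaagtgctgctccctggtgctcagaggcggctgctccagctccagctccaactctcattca
Polr2a, chr11:69758634-69758883, minus strand: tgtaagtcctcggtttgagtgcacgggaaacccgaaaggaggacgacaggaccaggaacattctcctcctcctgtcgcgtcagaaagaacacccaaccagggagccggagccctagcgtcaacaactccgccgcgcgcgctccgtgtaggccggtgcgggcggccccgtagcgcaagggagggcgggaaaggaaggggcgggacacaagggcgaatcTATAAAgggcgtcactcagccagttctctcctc

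The Med14 sequence held 3 matches of CGGAAG, all on its reverse strand. Those that began 67 and 48 bases before the RefSeq start lie inside its GENCODE span. The Polr2a sequence held 1 match of TATAAA, which began 33 bases before the RefSeq start. Of 32851 promoters in the table, 13.6% held the ETS core, 12.4% the TATA letters, 33.8% the NF-Y letters and 2.78% the CREB letters. Med12 and Med12l held 0 matches of the 4 motifs. The number of CpG dinucleotides was 22 for Med12, 28 for Med14, 26 for Med12l and 23 for Polr2a, against a median of 6 over all promoters. Promoters were found for 36 of the 43 genes. Among their 42 annotated promoters 14 held the ETS core, 15 the NF-Y letters, 5 the TATA letters and 1 the CREB letters. The number of CpG dinucleotides in these 42 promoters ranged from 3 to 51, so the 4 genes shown lay within the range of the set.

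In Ctrl, the core Pol II genes were far from equal in level. The median of the 12 genes was 180 and 202 TPM in the Ctrl libraries, and the highest gene stood 231-fold and 373-fold above the lowest. A gene was taken as out of line when its TPM was over 4-fold above or below the median of its complex in both Ctrl libraries, a description with no test. By this rule Polr2a, Polr2b, Polr2h and Polr2l were below the other core genes and 0 genes were above.

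The lowest was Polr2a, whose levels were 2.63 and 2.09 TPM in Ctrl and 3.04 and 4.02 TPM in AZ20. It lay 68.4-fold and 96.3-fold below the core median in Ctrl, resting on 154 and 140 reads over a gene length of 5799 bases. With AZ20 it lay 63.0-fold and 49.5-fold below the median. Polr2b, which encodes the other part of the active site, had 26.2 and 26.5 TPM in Ctrl and 23.1 and 34.3 TPM in AZ20. It was thus 6.87-fold and 7.59-fold below the median in Ctrl.

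The shared subunit genes Polr2l and Polr2h were the other genes that were low. Polr2l had 32.7 and 35.0 TPM in Ctrl and 41.4 and 39.2 TPM in AZ20, which was 5.51-fold and 5.75-fold below the median in Ctrl. Polr2h had 21.8 and 40.3 TPM in Ctrl and 12.6 and 46.7 TPM in AZ20. In both conditions its second replicate was above its first, so that the libraries differed more by replicate number than by condition. Polr2h shares 82 exon bases with Clcn2 on the opposite strand.

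The remaining core genes, which include the stalk genes Polr2d and Polr2g and the assembly genes Polr2c and Polr2j, had mean Ctrl levels up to 694 TPM, the level of Polr2d. Polr2d had 607 and 781 TPM in Ctrl and 775 and 956 TPM in AZ20. It was 3.37-fold and 3.88-fold above the core median in Ctrl, just inside the limit, and was over 4-fold above it in both AZ20 libraries. Its partner in the stalk, Polr2g, had 549 and 706 TPM in Ctrl and 572 and 662 TPM in AZ20. Polr2c, with 106 and 173 TPM in Ctrl, shares 953 annotated exon bases with Dok4 on the opposite strand. That number is over all GENCODE transcripts and exceeds the 789 bases that the TPM used. Polr2m had 21.8 and 19 TPM in Ctrl and 19.9 and 24.1 TPM in AZ20.

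**Figure D1:**
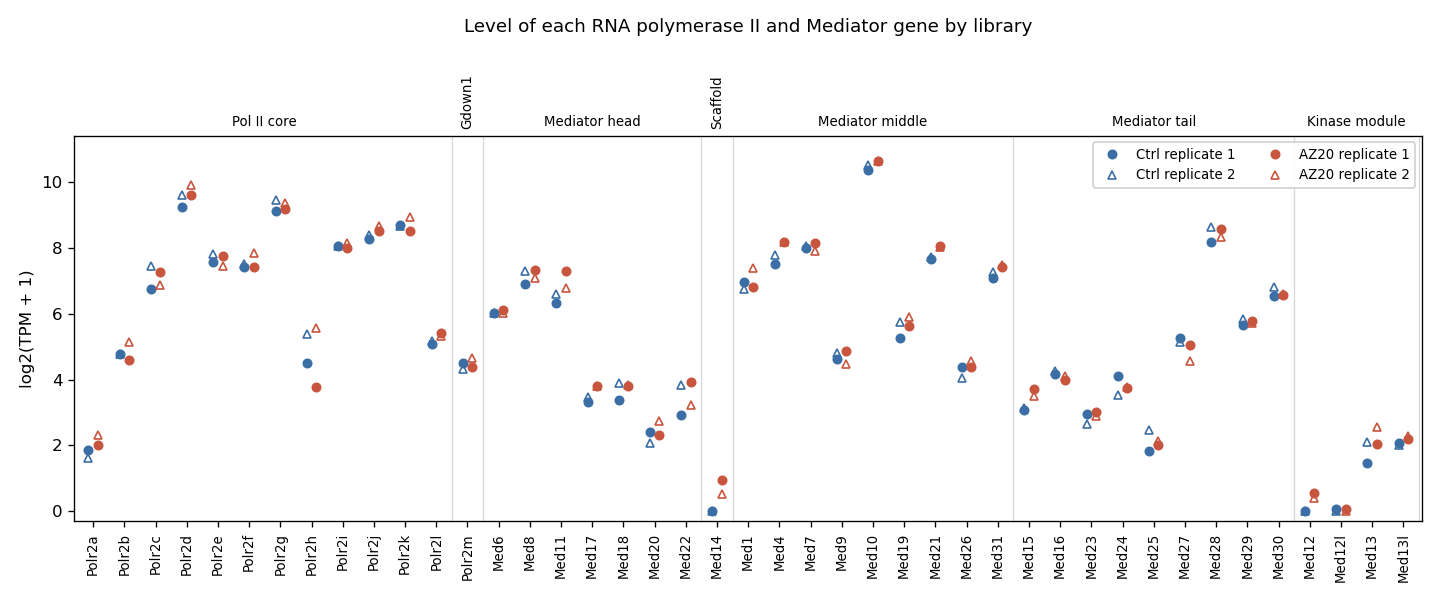
Level of each gene as log2(TPM + 1) in the 2 Ctrl libraries (blue) and the 2 AZ20 libraries (red), with circles for replicate 1 and triangles for replicate 2, grouped by complex and module. Polr2a lies below the other core genes in every library, and Med12 and Med14 lie at 0 in Ctrl and above it in AZ20.

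Among the 30 Mediator genes the median was 21.9 and 22.4 TPM in Ctrl, and more genes were out of line. Below the median were Med12, Med12l, Med13, Med13l, Med14, Med20 and Med25, that is, the 4 kinase module genes, the scaffold gene and 1 gene each of the head and tail. Above it were Med1, Med4, Med7, Med8, Med10, Med21, Med28, Med30 and Med31, of which 6 belong to the middle module. Middle module genes had a median of 136 and 153 TPM in Ctrl, against 9.51 and 13.9 TPM for the head and 17.1 and 18.1 TPM for the tail. Against the median of the autosomal Mediator genes alone, Med1, Med8 and Med30 no longer passed the limit above and Med23 passed it below. The module of subunits such as Med19 and Med27 to Med30 is assigned differently by different sources.

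The highest Mediator gene was Med10, of the middle module, with 1305 and 1457 TPM in Ctrl and 1578 and 1579 TPM in AZ20. This was 59.6-fold and 65.0-fold above the Mediator median in Ctrl. Its annotation shares 4168 exon bases with Gm26819 on the opposite strand, which is not in the table. That number is over all GENCODE transcripts and exceeds the 862 bases that the TPM used. Med28, of the tail, had 290 and 395 TPM in Ctrl and 382 and 318 TPM in AZ20. Both AZ20 libraries of Med10 were above both Ctrl libraries (log2 change 0.20, limma adjusted p = 0.755), whereas Med28 overlapped.

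Med7 and Med21 encode proteins that pair in the hinge of the middle module. Med7 had 256 and 262 TPM in Ctrl and 282 and 236 TPM in AZ20. Med21 had 200 and 210 TPM in Ctrl and 264 and 262 TPM in AZ20. Med7 overlapped between the conditions, whereas both AZ20 libraries of Med21 were above both Ctrl libraries (log2 change 0.36, limma adjusted p = 0.546). Med1, whose product binds nuclear receptors, had 122 and 106 TPM in Ctrl and 112 and 166 TPM in AZ20, with overlap.

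Med31, of the middle module, had 136 and 153 TPM in Ctrl and 170 and 178 TPM in AZ20, without overlap (limma adjusted p = 0.728). Med8, of the head, had 118 and 155 TPM in Ctrl and 160 and 134 TPM in AZ20. Med30 had 91.6 and 110 TPM in Ctrl and 94.7 and 96.3 TPM in AZ20, and like Med8 it overlapped between the conditions. Med30 was the high gene nearest to the limit, at 4.19-fold and 4.92-fold above the median. Med11, with 79 and 96.0 TPM, was 3.61-fold and 4.28-fold above it and so passed the limit in 1 library only. At the low end Med23, with 6.71 and 5.24 TPM, was likewise 3.26-fold and 4.28-fold below it.

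Of the low autosomal genes, Med25 of the tail had 2.53 and 4.58 TPM in Ctrl and 3.03 and 3.39 TPM in AZ20. Med20 of the head had 4.28 and 3.19 TPM in Ctrl and 3.94 and 5.75 TPM in AZ20, which left it within 4-fold of the median in the second AZ20 library. In both AZ20 libraries 6 Mediator genes were below the 4-fold limit and 9 above it. The changes from Ctrl were that Med20 was no longer listed below, Med11 was listed above and Med30 was not.

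Levels were lower for longer genes. Over the 12 core Pol II genes, the Spearman correlation of gene length with mean Ctrl TPM was -0.427, and over the 27 Mediator genes above 1 TPM in a condition it was -0.623, against -0.222 over 10316 genes. These are descriptions across genes of the same libraries, which share depth and library chemistry. The 18 genes of up to 1500 bases had a median of 202 TPM in Ctrl, whereas all 2968 expressed genes of that length had a median of 19 TPM. The 6 genes longer than 4000 bases had a median of 4.57 TPM, against 5.20 TPM for all 2275 such genes. Med1, at 7589 bases, and Med28, at 4568 bases, were long and yet high. Polr2h, at 787 bases, was short and yet low. Length moved with the low levels of Polr2a, Med13 and Med13l, and its part in them was not tested.

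**Figure D2:**
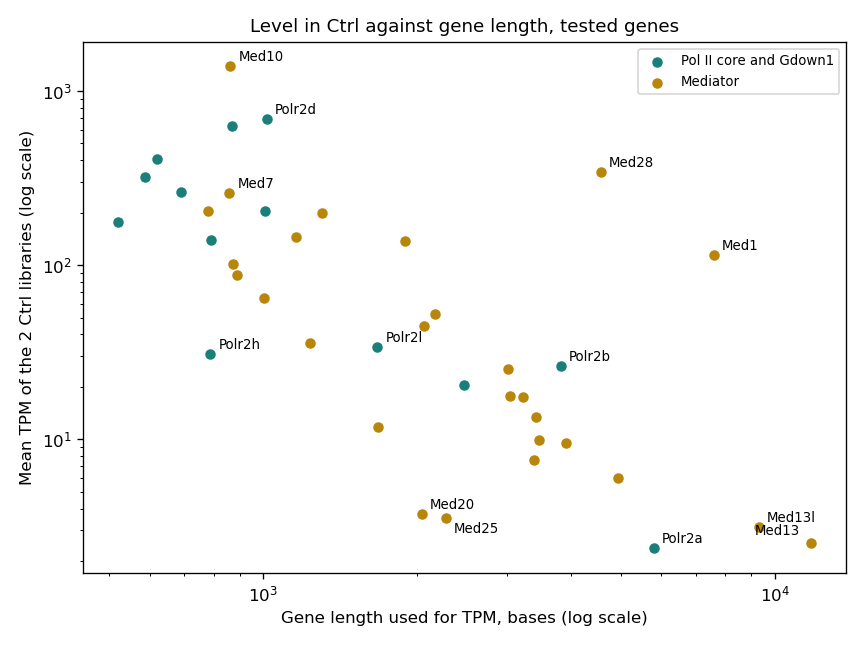
Mean TPM of the 2 Ctrl libraries against the gene length used for TPM, both on log scales, for the 40 genes above the expression limit, with 1 point per gene. Polr2a, Med13 and Med13l lie at the long and low end, and Med1 and Med28 lie above other genes of their length.

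The comparison of AZ20 with Ctrl asked whether the inhibitor changed these levels. Genes with a mean TPM above 1 in either condition entered a limma fit of log2(TPM + 1). A call needed a 2-fold difference on this scale and an adjusted p (Benjamini-Hochberg, over all 10316 genes) under 0.05. The added 1 shrinks changes of genes at a few TPM, such as Polr2a, Med13, Med13l, Med20 and Med25. For these genes a call needed more than a 2-fold change of TPM. Of the 43 genes 40 passed the expression limit, and Med12, Med14 and Med12l did not. Of the 40 genes, limma called 0 higher, where 2.28% of all genes tested were, and 0 lower, where 0.0485% were. All 40 are autosomal, and most calls were X-linked (216 of the 235 genes called higher). Of the 9930 autosomal genes tested only 0.101% were called higher and 0.0504% lower, so 0 of 40 is near the background. In libraries simulated at these depths, with a spread between replicates that was assumed, the fit called 36.5% of the genes changed 2-fold and 98.5% of those changed 4-fold. The same 0 calls came from limma's voom method on recovered reads and from the fit with the replicate number as a block. At an unadjusted p under 0.05, 2 of the 40 genes were higher (8.03% of all genes, 5.17% of autosomal genes) and 0 were lower (1.13% and 1.18%). With 2 libraries against 2, an exact permutation test cannot give a two-sided p below 0.333.

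For the core Pol II genes, the log2 changes ranged from -0.27 (Polr2h) to 0.43 (Polr2a) and had a median of 0.07, the same as the median over all genes tested to 2 decimals. Polr2a was higher in both replicate pairs, by 0.15 and 0.70 on the log2(TPM + 1) scale, and its AZ20 libraries were both above its Ctrl libraries. Its log2 change of 0.43 had a standard error of 0.29 and a 95% interval of -0.26 to 1.11 (limma adjusted p = 0.766). This is on the log2(TPM + 1) scale. The mean TPM of Polr2a with AZ20 was 1.49 times that in Ctrl, and voom gave a log2 change of 0.55. Its level remained the lowest of the core genes in all 4 libraries. For the other low genes the log2 change was 0.09 (Polr2b), -0.27 (Polr2h) and 0.25 (Polr2l), and the adjusted p in limma was 0.957, 0.942 and 0.802. The interval of Polr2h was the widest of the tested genes, from -1.63 to 1.09. Polr2d had a log2 change of 0.32 (limma adjusted p = 0.702), the lowest adjusted p of the core genes.

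For the Mediator genes, the 27 tested had a median log2 change of 0.18 and ranged from -0.40 (Med27) to 0.57 (Med11). All 27 are autosomal. The genes past an unadjusted p of 0.05 were Med4 and Med11. Med4 had 180 and 219 TPM in Ctrl and 286 and 287 TPM in AZ20, and so did not overlap between the conditions. Its log2 change was 0.53, with a standard error of 0.17 and a 95% interval of 0.13 to 0.92 (limma adjusted p = 0.346). Med11, of the head, had 79 and 96.0 TPM in Ctrl and 155 and 108 TPM in AZ20. Its groups did not overlap either, but its change was 0.96 in the first pair and 0.17 in the second (limma adjusted p = 0.514). With the replicate number as a block, the limma adjusted p was 0.182 for Med4 and 0.210 for Med11.

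By module, the median log2 change was 0.26 for the 9 middle genes, 0.18 for the 7 head genes and -0.06 for the 9 tail genes. The middle median was 0.27 and 0.22 in the replicate pairs, whereas that of the head was 0.44 and -0.0099 and that of the tail 0.064 and -0.14. In the middle module 5 of 9 genes were higher in both replicate pairs, in the head 2 of 7 and in the tail 2 of 9. These differences between modules were not tested. Over all 40 genes 15 were higher in both pairs and 2, Med16 and Med27, were lower in both. Med27 had 37.1 and 34.3 TPM in Ctrl and 32 and 22.5 TPM in AZ20 (limma adjusted p = 0.722), without overlap. Of all genes tested, 36.1% were higher and 19.4% lower in both pairs, and of autosomal genes 34.1% and 20%, so the 37.5% of members higher in both was close to the background. The AZ20 libraries were both above the Ctrl libraries for 11 of the 40 genes (26.4% of all and 24% of autosomal genes tested) and both below for 2 (11.7% and 12.2%).

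**Figure D3:**
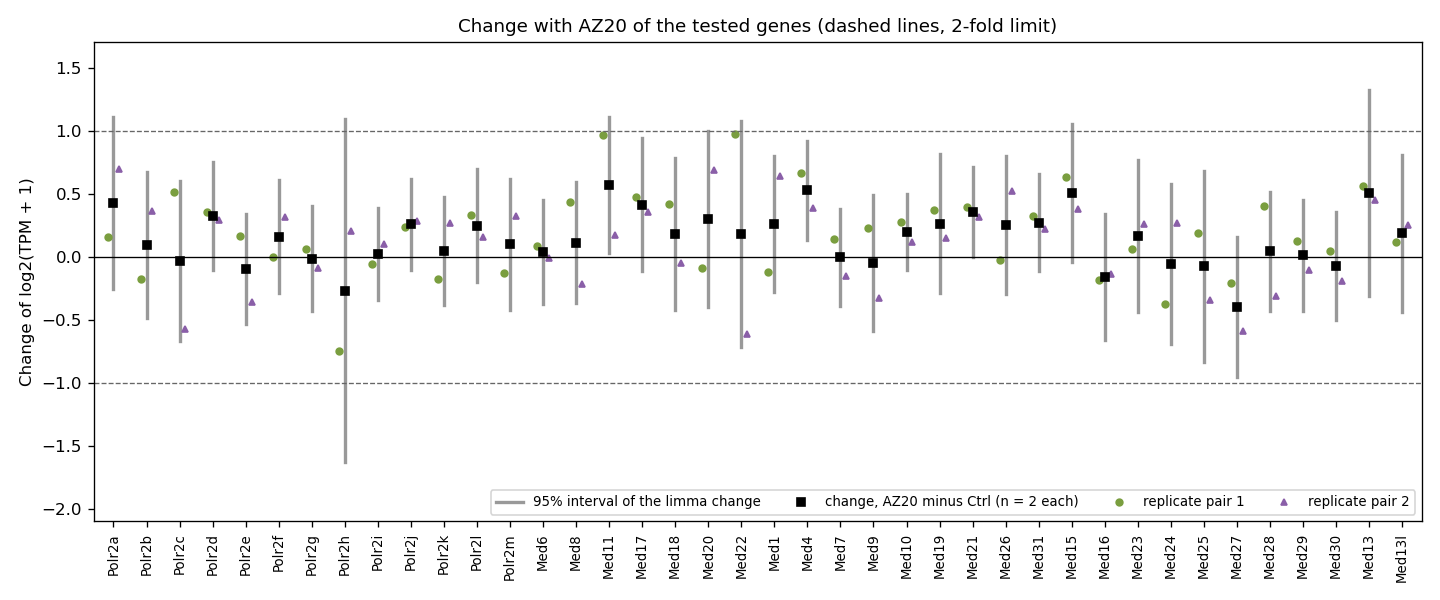
Change of log2(TPM + 1) from Ctrl to AZ20 for the 40 tested genes, with squares for the limma change, grey bars for its 95% interval, and circles and triangles for replicate pairs 1 and 2. All squares lie within the dashed lines of the 2-fold limit, and the interval of Polr2h is the widest.

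The X-linked genes of the set, both in Mediator, differed from the rest. Med14, which encodes the subunit that joins the head, middle and tail, lies on GRCm38 chrX:12675369-12762073 on the minus strand. No read fell on it in either Ctrl library (0 TPM), and with AZ20 100 and 42 reads did, for 0.934 and 0.435 TPM. Med12, which encodes the activator of the Mediator kinase, lies on chrX:101274030-101297465 on the plus strand. It was likewise at 0 TPM in Ctrl, and 59 and 37 reads with AZ20 gave 0.480 and 0.334 TPM. For both genes the groups did not overlap. Med12 shares 749 annotated exon bases with Gm21986 on the same strand.

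A count of 0 allows up to 3 reads. At the depth of the Ctrl libraries, 3 reads of Med14 are 0.0404 and 0.0353 TPM, and 3 reads of Med12 are 0.0352 and 0.0308 TPM. Against the mean of these floors over the Ctrl libraries, the mean AZ20 level of Med14 was at least 18.1-fold and that of Med12 at least 12.3-fold higher. With the second AZ20 library alone the bounds were 11.5-fold and 10.1-fold. These bounds cover counting error in Ctrl only and take the AZ20 levels as measured. On the log2(TPM + 1) scale the change was 0.74 for Med14 and 0.49 for Med12.

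Because their AZ20 levels were below 1 TPM, neither gene was in the test above. Without the expression limit, limma on log2(TPM + 1) over 16857 genes could call neither gene, because both changes were under 2-fold on this scale. The adjusted p was 0.352 for Med14 and 0.253 for Med12, and 0.0752 and 0.178 with the replicate block. On the recovered reads without that limit, a fit chosen after the data were seen, voom called both higher (adjusted p = 0.000279 for Med14 and 0.000431 for Med12), as it did 2.15% of the 16857 genes (0.089% were called lower, 0 of them members). Its fitted fold change for a gene at 0 reads depends on a prior count and is no bound. Both genes entered the fits without the limit only through their AZ20 reads, and 0 reads in both Ctrl libraries show no spread between replicates. The p-values of these fits are therefore no separate support for the change. Of 1034 X-linked genes 735 were listed at 0 TPM in both Ctrl libraries, and 230 of these were above 0 in both AZ20 libraries. Their median level in AZ20 was 0.888 TPM, and 130 and 155 of them had a higher mean level than Med14 and Med12.

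With AZ20, both genes were still far below the Mediator median, and of the other Mediator genes Med12l was lower still. Med14 lay 25.5-fold and 50-fold and Med12 49.6-fold and 65.2-fold below the Mediator median in the AZ20 libraries. Most head, middle and tail genes, which encode the subunits that MED14 holds together, were above 5 TPM in every library. The exceptions were Med20 and Med25.

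The autosomal paralog of Med12 was also close to absent. Med12l had 5 and 1 reads in Ctrl and 7 and 1 reads in AZ20, at 0.0484, 0.00846, 0.0470 and 0.00744 TPM in that order. Its levels followed the replicate number and overlapped between the conditions, and it shares 1948 annotated exon bases with Igsf10 on the opposite strand. In Ctrl those few reads of Med12l were all that was recovered for the MED12 family.

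The other genes of the kinase module were present in every library. Med13 had 1.78 and 3.29 TPM in Ctrl and 3.09 and 4.86 TPM in AZ20 and so overlapped (log2 change 0.50 ± 0.34 SE, adjusted p = 0.768 in limma). The mean TPM of Med13 with AZ20 was 1.57 times that in Ctrl. Its paralog Med13l had 3.24 and 3.07 TPM in Ctrl and 3.60 and 3.85 TPM in AZ20 (log2 change 0.18, limma adjusted p = 0.904). Of the paralogous kinase genes, Cdk8 had 4.6 and 3.62 TPM in Ctrl and 5.45 and 3.01 TPM in AZ20. Cdk19 had 7.27 and 6.93 TPM in Ctrl and 6.93 and 6.82 TPM in AZ20. Cyclin C, from Ccnc, had 22.7 and 20.8 TPM in Ctrl and 22.4 and 29.5 TPM in AZ20. Of these 5 tested genes limma called 0, and 0 had an unadjusted p under 0.05.

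**Figure D4:**
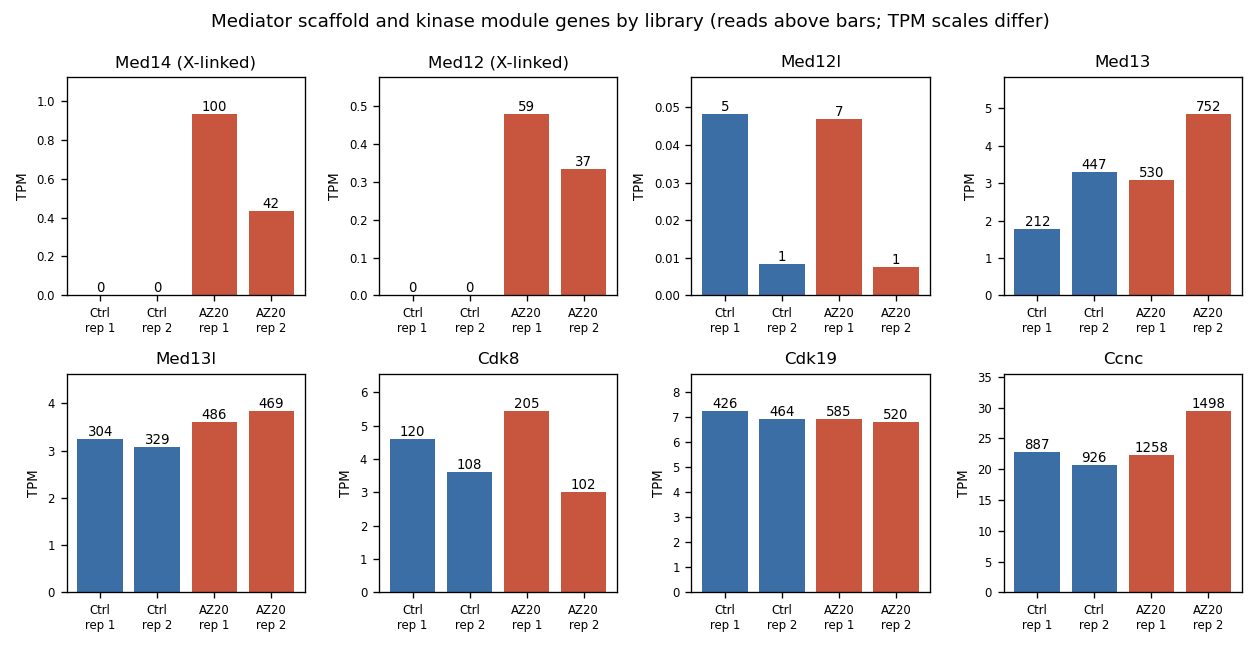
TPM of the scaffold gene Med14 and of 7 kinase module genes in each library (bars from 0, blue Ctrl and red AZ20), with the reads recovered above each bar and a separate TPM scale for each gene. Med14 and Med12 have 0 reads in both Ctrl libraries, whereas the bars of the other genes overlap between the conditions except those of Med13l.

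Genes that work beside Pol II and Mediator were read in the same way. Of the 19 subunit genes of RNA polymerases I and III, 17 were tested, with log2 changes from -0.42 to 0.32 and a median of 0.02. Their median level over the 19 genes was 9.07 TPM in Ctrl, against 180 and 202 TPM for the core Pol II genes. The core Pol II genes include the 5 subunit genes shared by the 3 polymerases, which are not among the 19. Without those 5 the core median was 264 TPM in both Ctrl libraries. The lists were not matched for gene length, with which levels fell. Polr1a, the gene of the largest Pol I subunit, had 4.20 and 3.68 TPM in Ctrl, and Polr3a, that of the largest Pol III subunit, had 3.64 and 4.0 TPM. Along with Polr2a, the genes of the largest subunits of the 3 polymerases thus lay under 5 TPM in Ctrl. These genes are long, at 5799 (Polr2a), 6109 (Polr1a) and 4683 (Polr3a) bases. All 2275 tested genes longer than 4000 bases had a median of 5.20 TPM, so such a level is common at that length.

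Of the other lists, 17 of 18 genes of the general factors TFIIA, TFIIB, TFIIE, TFIIF and TFIIH were tested, 12 of 13 genes of pausing and elongation factors, and all 7 genes of Pol II assembly and of CTD phosphatases. Their median log2 changes were 0.01, 0.03 and 0.19. Across these lists and the polymerase I and III genes, limma and voom each called 0 genes higher and 0 lower. Over autosomal genes tested, limma called 0.101% higher and 0.0504% lower. At an unadjusted p under 0.05, 1 gene of all these lists was higher and 0 were lower, where 5.17% and 1.18% of autosomal genes tested were. That gene, Gtf2a1, encodes the large TFIIA subunit and had 60.2 and 53.2 TPM in Ctrl and 70.9 and 97.3 TPM in AZ20 (limma adjusted p = 0.506).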

How the data were processed

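Each library has 1 column of TPM. Per the study's methods and the submitters' processing notes, the authors used Trimmomatic (0.39) for trimming and STAR (2.5.4b) for alignment to GRCm38, kept unique alignments, counted them on the UCSC refGene annotation with featureCounts (2.0.1) and computed the deposited TPM from the counts. Reads of near-identical copies are thereby lost, and strand-specific counting is not stated. Of the 43 genes, 19 overlap exons of a gene on the opposite strand, 10 of them exons of a gene in the table. Overlaps were taken over all GENCODE transcripts, so they can exceed the bases that were counted. Reads that fall on both genes of such a pair cannot be told apart. Only the overlaps of Polr2h, Polr2c, Med10 and Med12l are named.

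Because every library uses 1 length per gene, whole reads and a whole length in bases (within 0.005 of a whole number) were recovered for all 16857 genes above 0. A factor common to reads and length can be missed, 921 of 6758 lengths compared equal the RefSeq exon length, and in a simulation 94.7% of genes were recovered exactly. The limma fit was checked on simulated data, in which it called 23 of 63 genes changed 2-fold, 66 of 67 changed 4-fold and 68 of 68 changed 8-fold, among 9943 genes.

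Log2(TPM + 1) was fitted with limma (3.58.1, R 4.3.3) with a variance trend. Reads were also fitted with voom. Python 3.11.15 with pandas 2.3.3, numpy 2.4.6 and scipy 1.17.1 gave the other values. Blank symbols (92) were left out. Genes were placed with GENCODE and RefSeq on GRCm38.

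Libraries of a number were taken to share a mouse, and their deviations from the group means correlated at 0.229 over 10316 genes. The block was kept to alternatives, so the main p-values and intervals do not use this pairing.

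Values in every library are given for genes that were X-linked, out of line, past an unadjusted p of 0.05, paralogs, or Polr2a. The rest of the genes with values, such as Gtf2a1, were picked with their values in view. The members and lists were chosen with earlier results of these data known.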

Additional observations from a re-analysis of the deposited data

How the results depend on the processing

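The counts of 0 members called higher and 0 lower held with pseudocounts of 0.1 and 0.01, autosomal scaling, quantile normalization, a filter of 5 TPM, no filter, no trend, no fold limit, voom and leaving out each library. Med12 and Med14 could be called only without the filter, and there not on log2(TPM + 1), where they changed by under 2-fold. Without either AZ20 library limma called 0 genes of all tested, so these settings say nothing about the members. Only voom on reads without the filter gave another count, 2 called higher, which were Med12 and Med14. Both had entered that fit only through their AZ20 reads. With the replicate block, 0 members were called higher and 0 lower and no call reported for a list changed, while over all genes 447 were called in place of 240. Leaving out 1 library moved the median of the core Pol II genes to between 0.0036 and 0.30, with 0.30 without AZ20 replicate 1, 0.18 without Ctrl replicate 2 and 0.0036 without AZ20 replicate 2, and that of the autosomal Mediator genes to between 0.12, without Ctrl replicate 1, and 0.25. Quantile normalization moved the median of all genes by -0.14 and that of the autosomal Mediator genes to 0.041. The change of Med14 was 2.89 and 6.02 with pseudocounts of 0.1 and 0.01, 6.67 with voom, and 0.52 to 0.95 without 1 library. That of Med12 was 2.33, 5.36, 6.19 and 0.42 to 0.57. These larger values follow from the smaller offset added to a level of 0. With an 8-fold limit 4 genes were below and 5 above their complex in Ctrl, and with a 2-fold limit 14 were below and 15 above. Against the autosomal median 12 were below and 6 above. In single Ctrl libraries 11 to 12 were below and 9 to 10 above. The changes of Polr2a, Med4 and Med11 kept their direction in every alternative run. The reads behind Med12 and Med14 limit their precision, and Med12l had too few reads for a comparison.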
